A study of Homo sapiens with 8 samples.

Results

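The 10 genes described here, AGR2, AGR3, TFF1, TFF2, TFF3, CEACAM5, CEACAM6, LCN2, LYZ and GATA6, encode secreted or surface products of the classical type of pancreatic ductal adenocarcinoma and a transcription factor linked to that type. They were taken by gene name, with no cut on their values, and all 10 were found among the 62649 genes of the table. RNA was sequenced from 2 human pancreatic cancer lines, AsPC-1 and PANC-1, whose genotype the labels give as WT. Both were grown as spheroids in methylcellulose medium for 3 days and then exposed for 24 h to the vehicle, 10 µM roseoflavin, 1 nM trametinib, or roseoflavin and trametinib together. Roseoflavin is a riboflavin analogue made by a soil bacterium, and trametinib inhibits the MEK kinases that activate ERK. Each line and treatment had 1 library, 8 in all, so no group was replicated, and each line stands for 1 tumour.

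Classical tumours keep features of a gut-like, mucus-making epithelium, whereas basal-like (squamous) tumours have lost them. In such an epithelium, disulfide isomerases of the endoplasmic reticulum such as AGR2 fold mucins, trefoil factors are released with the mucus, CEACAM proteins coat the cell surface, and LCN2 and LYZ are released as antibacterial proteins. GATA6, a zinc-finger factor of endoderm development, is widely used as a marker of the classical type.

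Values are TPM, a transcript abundance corrected for gene length whose total is the same in every library, so that sequencing depth is not known. In AsPC-1, 15280 to 15580 genes were at 1 TPM or more per library, and in PANC-1, 17105 to 17201. Mitochondrially encoded RNA made up 41.2% to 44.1% of TPM in AsPC-1 but 22.8% to 25.6% in PANC-1, which lowers every nuclear gene's TPM in AsPC-1 relative to PANC-1. The duct keratins KRT18, KRT19 and KRT8 were abundant in both lines (means of 2334, 2136 and 1900 TPM in AsPC-1, and 926.2, 990.4 and 912.2 TPM in PANC-1). EPCAM, an epithelial surface marker, averaged 1357 TPM in AsPC-1 but 15.9 TPM in PANC-1. None of 7 acinar and none of 4 endothelial markers reached a mean of 1 TPM in either line, and 2 of 8 blood cell markers did so in AsPC-1 and 3 in PANC-1. These were CD68, a lysosomal protein gene (110.5 TPM in AsPC-1 against 130.1 TPM in PANC-1), CD14 (3.75 and 1.01 TPM) and, in PANC-1, ELANE (0.024 and 3.81 TPM), while MPO and CD3E were at 0 in all 8 libraries. Among 7 fibroblast markers, 1 had a mean of 1 TPM or more in AsPC-1, the matrix gene LUM (126.3 TPM, against 0.00975 for PANC-1). The 2 that did so in PANC-1 were the collagen genes COL1A1 (103.2 TPM) and COL3A1 (1.84 TPM). Their AsPC-1 means were 0.0823 and 0.02 TPM.

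Of these genes, 2 pairs and 1 trio lie side by side in the genome (GENCODE release 29, GRCh38). AGR2 (chr7:16791811-16833433) and AGR3 (chr7:16859405-16881987), both on the minus strand, are 25972 bases apart. TFF3 (chr21:42311667-42315651), TFF2 (chr21:42346357-42351128) and TFF1 (chr21:42362282-42366594) follow each other on the minus strand with gaps of 30706 and 11154 bases. CEACAM5 (chr19:41708585-41729798) and CEACAM6 (chr19:41750977-41772208) are on the plus strand with 21179 bases between them. LCN2 (chr9:128149071-128153455), LYZ (chr12:69348341-69354234) and GATA6 (chr18:22169443-22202528), all on the plus strand, stand alone. RefSeq promoters (GRCh38.p14) were found for 6 of the 10 genes. The 250 bases before the start site are shown for both pairs, whose members had the same direction of difference between trametinib-treated and other AsPC-1 libraries, with matches to the motifs searched in capitals. The stretches are chr7:16805000-16805249 (minus strand), chr7:16881984-16882233 (minus strand), chr19:41708376-41708625 (plus strand) and chr19:41755280-41755529 (plus strand). The AGR2 and CEACAM6 stretches lie inside the longer GENCODE genes, since RefSeq places these starts further downstream.
AGR2: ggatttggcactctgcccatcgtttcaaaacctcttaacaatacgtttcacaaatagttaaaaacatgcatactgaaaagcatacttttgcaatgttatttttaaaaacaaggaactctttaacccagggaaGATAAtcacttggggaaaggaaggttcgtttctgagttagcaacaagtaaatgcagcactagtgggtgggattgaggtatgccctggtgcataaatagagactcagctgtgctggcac
AGR3: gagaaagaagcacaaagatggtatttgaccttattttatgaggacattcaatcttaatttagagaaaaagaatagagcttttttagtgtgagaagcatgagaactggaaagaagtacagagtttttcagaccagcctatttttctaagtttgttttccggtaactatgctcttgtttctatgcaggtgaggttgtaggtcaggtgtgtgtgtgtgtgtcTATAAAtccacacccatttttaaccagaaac
CEACAM5: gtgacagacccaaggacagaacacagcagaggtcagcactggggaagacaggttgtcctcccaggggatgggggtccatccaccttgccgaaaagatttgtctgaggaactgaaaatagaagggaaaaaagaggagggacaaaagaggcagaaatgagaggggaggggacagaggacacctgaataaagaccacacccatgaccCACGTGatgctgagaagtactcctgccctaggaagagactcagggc
CEACAM6: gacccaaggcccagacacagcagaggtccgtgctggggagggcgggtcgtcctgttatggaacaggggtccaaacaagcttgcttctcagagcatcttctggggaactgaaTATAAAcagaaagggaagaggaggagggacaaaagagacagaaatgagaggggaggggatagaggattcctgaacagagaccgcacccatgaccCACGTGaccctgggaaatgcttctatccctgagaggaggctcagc

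The motifs searched on both strands, in windows of 300 bases that end 50 bases after the start site, were TATAAA (the box bound by TBP), GATAA (bound by factors such as GATA6), GTAAACA (forkhead factors), TGANTCA (AP-1) and CACGTG (E-box). The CEACAM5 and CEACAM6 windows were identical at 230 of 308 aligned positions (74.7%), and each held a CACGTG that begins 46 and 45 bases before its start site. CACGTG was found in 7.26% of 35116 RefSeq promoters of that length. CEACAM6 also had TATAAA at position -139. The AGR2 and AGR3 windows were identical at 155 of 338 aligned positions (45.9%) and shared none of the 5 motifs. AGR2 held GATAA at -118, a match present in 22.7% of all promoters, and AGR3 held TATAAA at -31, present in 11.5%. Among the promoters not printed, the LCN2 window held TGANTCA at -52 (7.71% of all promoters) and the GATA6 window held none of the 5 motifs. GTAAACA, found in 3.42% of all promoters, was in none of the 6. These are matches of letters, not measured binding.

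The secretory genes were abundant in AsPC-1 and, AGR2 aside, low or at 0 in PANC-1. Together they summed to between 4718 and 5357 TPM in the AsPC-1 libraries, or 0.472% to 0.536% of TPM, and to between 92.3 and 103.7 TPM in the PANC-1 libraries, most of it AGR2. In bulk RNA, fewer expressing cells and less RNA per cell cannot be told apart. In the AsPC-1 vehicle library LYZ ranked 21 and CEACAM6 ranked 26 among 62612 genes outside the mitochondrial genome, and AGR3 ranked 14058. The order of mean TPM in AsPC-1 was CEACAM6 and LYZ, whose ranges overlapped, then CEACAM5, LCN2 and AGR2, then TFF2, TFF3 and GATA6, each of which overlapped the next, then TFF1 and AGR3. Ranges over the 4 treatments did not overlap between any other neighbours in that order.

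**Figure D1:**
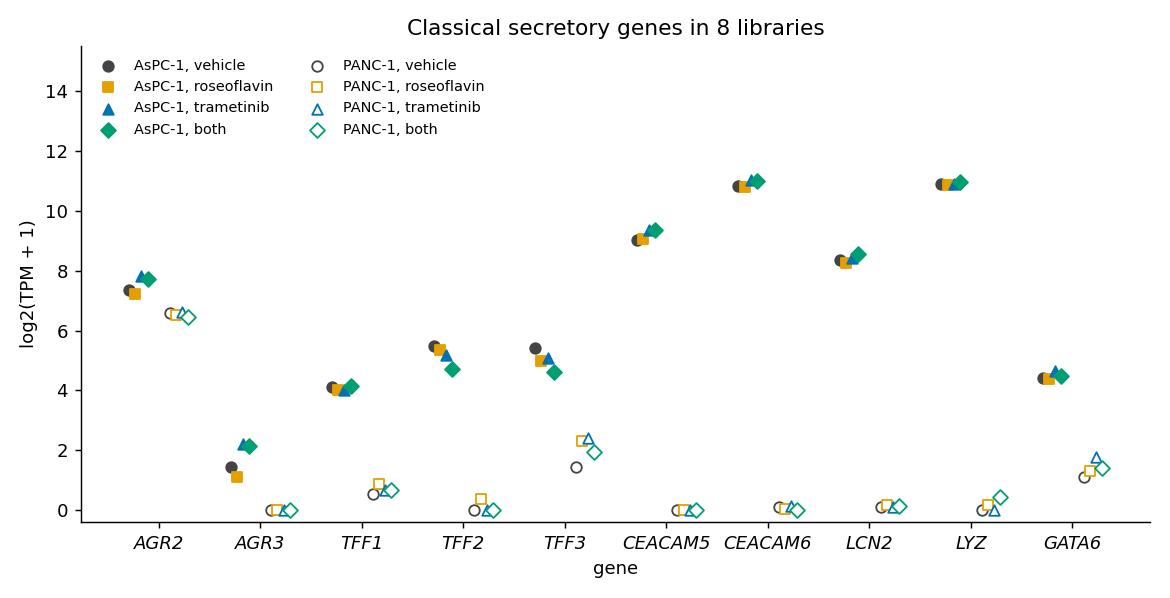
Level of each of the 10 genes in each of the 8 libraries, on the y axis as log2(TPM + 1), with filled symbols for AsPC-1 and open symbols for PANC-1 and a symbol shape for each treatment (1 library per point, no error bars). AGR2 is the gene with high values in both lines, and CEACAM5 and AGR3 lie at 0 in all 4 PANC-1 libraries.

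AGR2, a disulfide isomerase needed to fold mucins, was read at 163.3 TPM with vehicle, 148.3 with roseoflavin, 224.0 with trametinib and 212.0 with both compounds in AsPC-1. In PANC-1 its level was 94.5, 89.9, 96.1 and 86.7 TPM in the same order. All 4 AsPC-1 libraries lay above all 4 PANC-1 libraries, with means of 186.9 ± 36.8 and 91.8 ± 4.32 TPM (SD, n = 4 treatments). AGR3, its close relative and neighbour, stood at 1.71, 1.15, 3.60 and 3.44 TPM in AsPC-1 and was listed at 0 in all 4 PANC-1 libraries. AGR2 thus exceeded AGR3 in AsPC-1 by 95.3, 129, 62.3 and 61.7 times. TSPAN13, on the other side of AGR2, was lower in AsPC-1 (mean 40.9 TPM) than in PANC-1 (105.2 TPM), and AHR, next to AGR3, averaged 29.8 and 21.9 TPM.

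Of the trefoil factors, small secreted peptides that act with mucins in mucosal repair, TFF2 and TFF3 were higher than TFF1 in AsPC-1. TFF1 (gastric surface type) was at 16.3, 15.0, 15.3 and 16.8 TPM with vehicle, roseoflavin, trametinib and both compounds. TFF2 (gastric gland type) was at 44.0, 39.7, 35.7 and 25.1 TPM, and TFF3 (goblet cell type) at 41.4, 30.5, 32.5 and 23.3 TPM. TFF2 and TFF3 were thus highest with vehicle and lowest with both compounds, while TFF1 stayed within a narrow range. In PANC-1, TFF1 was at 0.453 to 0.842 TPM and TFF2 was listed at 0 in 3 libraries and at 0.296 TPM with roseoflavin. TFF3 was at 1.69, 3.93, 4.36 and 2.89 TPM there, lowest with vehicle, the treatment with the highest value in AsPC-1. The neighbours of the trio, TMPRSS3 next to TFF1 and ABCG1 next to TFF3, were also higher on average in AsPC-1 (3.24 and 13.4 TPM) than in PANC-1 (0 and 0.881 TPM).

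CEACAM5 (carcinoembryonic antigen) and CEACAM6, which encode adhesion proteins anchored to the outer face of the cell membrane, were among the most abundant transcripts of AsPC-1. CEACAM5 was at 524.7, 527.6, 660.2 and 656.9 TPM and CEACAM6 at 1792, 1775, 2104 and 2046 TPM with vehicle, roseoflavin, trametinib and both compounds. Both trametinib-treated libraries were above both others for each gene. The ratio of CEACAM6 to CEACAM5 was 3.42, 3.37, 3.19 and 3.11 in the same order. In PANC-1, CEACAM5 was listed at 0 in all 4 libraries and CEACAM6 did not exceed 0.097 TPM. These levels are uncertain, because a protein-coding gene model without a name in the table (ENSG00000267881, chr19:41708612-41761282) lies over both on the same strand. All 716 of its exon bases lie in exons of CEACAM5 (544) or CEACAM6 (172), and it was listed at 2942 to 3367 TPM in AsPC-1. How reads shared by overlapping genes were assigned is not given in the sources used here. Of the possible 75-base stretches of CEACAM5, 17.8% also occur in that model or in CEACAM3, and 3.05% of those of CEACAM6 occur in it or in CEACAM8. LYZ shares 0.962% with HMGB1P39 or WDR3, and the other 7 genes share none with another GENCODE gene.

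Other members of the CEACAM family were low, apart from CEACAM1, which averaged 79.5 TPM in AsPC-1 but 1.33 TPM in PANC-1. CEACAM7, directly before CEACAM5 on the chromosome, averaged 1.65 TPM in AsPC-1, and CEACAM3, the named gene after CEACAM6, 0.408 TPM. Both were at 0 in PANC-1. High levels were thus seen in CEACAM5 and CEACAM6 and not in the genes on either side of them.

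LYZ, the lysozyme that cleaves bacterial cell walls, was at 1888, 1856, 1919 and 1970 TPM in AsPC-1 with vehicle, roseoflavin, trametinib and both compounds. LCN2, a lipocalin that binds bacterial iron carriers, was at 325.3, 304.8, 338.6 and 376.5 TPM. In PANC-1, LYZ was listed at 0 in 2 libraries and at 0.12 and 0.344 TPM in the others, and LCN2 stayed between 0.07 and 0.13 TPM. Both are also blood cell products. Of the 8 blood cell markers, CD68 (110.5 TPM) and CD14 (3.75 TPM) reached a mean of 1 TPM in AsPC-1. The pan-leukocyte gene PTPRC and the granulocyte gene MPO did not. The cell source of LYZ and LCN2 was not tested. Among other antibacterial secretory genes, the protease inhibitor SLPI averaged 52.2 TPM in AsPC-1 and was at 0 in PANC-1, and WFDC2 averaged 40.2 and 0.444 TPM. LTF, BPIFB1, S100A8 and S100A9 were at 0 in all 8 libraries.

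GATA6 was at 20.1, 19.7, 24.2 and 21.4 TPM in AsPC-1 and at 1.14, 1.499, 2.46 and 1.68 TPM in PANC-1, with vehicle, roseoflavin, trametinib and both compounds. In both lines it was highest with trametinib alone. It was the only GATA gene higher in AsPC-1, since GATA5, GATA2, GATA4 and GATA3 all averaged more in PANC-1 (42.7, 22.9, 17.4 and 10.1 TPM) than in AsPC-1 (0.021, 1.43, 4.94 and 0.852 TPM), while GATA1 was at 0 throughout.

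Over the 4 treatments of AsPC-1, the coefficient of variation (SD divided by mean) was 2.55% for LYZ, 5.10% for TFF1, 8.81% for CEACAM6, 8.98% for LCN2, 9.59% for GATA6 and 12.9% for CEACAM5. It was 19.7% for AGR2, 22.3% for TFF2, 23.2% for TFF3 and 49.6% for AGR3. For comparison, 6710 RefSeq protein-coding genes with at least 10 TPM in AsPC-1 had a median of 6.32% and a 90th percentile of 12.03%. LYZ and TFF1 thus varied less than the median such gene, and AGR2, TFF2, TFF3, CEACAM5 and the low-level AGR3 more than the 90th percentile. In PANC-1, AGR2 varied by 4.70%, against a median of 4.44% over 8178 genes.

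The lines were compared with limma on log2(TPM + 1), with the 4 treatments as replication and Benjamini-Hochberg adjustment over the 19122 genes that reached 1 TPM in at least 2 libraries. All 10 secretory genes passed that filter, but 7 of them (AGR3, TFF1, TFF2, CEACAM5, CEACAM6, LCN2 and LYZ) passed through AsPC-1 alone and so had to differ. Their differences are given above as levels only. The other 3 were at 1 TPM or more in every library, and each was higher in AsPC-1. AGR2 was higher by 1.00 on the log2 scale (SE 0.11, adjusted p = 0.000379 by limma), TFF3 by 2.99 (SE 0.25, adjusted p = 9.92e-05) and GATA6 by 3.07 (SE 0.08, adjusted p = 1.17e-06). AGR2 averaged 2.04 times, TFF3 9.93 times and GATA6 12.6 times their PANC-1 level. Differences between the lines were the rule: 83.3% of genes tested were called, and 21.3% were called higher in AsPC-1, so a call alone says little of these genes. The median gene was lower in AsPC-1 by 0.55, and the share of calls higher in AsPC-1 moved from 25.5% to 47.5% after quantile normalization and to 39.1% after rescaling without the mitochondrial genome. AGR2, whose difference is the smallest of the 3, stayed between 0.90 and 1.39 under all alternatives tried. The p-values measure the spread between libraries that differ in treatment, not between replicate cultures.

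Genes of the 2 published classical signatures, leaving out the secretory genes themselves, were also mainly AsPC-1 genes. Of 17 other genes of the Moffitt classical list, 15 averaged 1 TPM or more in AsPC-1 but only 1 in PANC-1, and all 17 had the higher mean in AsPC-1. Of 17 others of the Collisson classical list, 17 and 7 reached that level, and all 17 had the higher mean in AsPC-1. The 4 most abundant of each list, some of them shared, were, with means in AsPC-1 before those in PANC-1, the tetraspanin TSPAN8 (969.8 and 0.608 TPM), the cadherin CDH17 (925.3 and 0.587 TPM), the lectin LGALS4 (472.3 and 2.28 TPM), GPRC5A (329.4 and 101.8 TPM), the mucin MUC13 (275.8 and 0.016 TPM) and PRR15L (104.2 and 0.0713 TPM). Of 16 other disulfide isomerase genes tested, 13 were called lower and 2 higher in AsPC-1, where 62.0% of all genes tested were called lower. Among the lower, PDIA2 (0.092 and 5.42 TPM) passed the filter through PANC-1 alone and so had to differ. PDIA4 (182.7 and 373.2 TPM), PDIA6 (157.5 and 275.6 TPM) and P4HB (98.5 and 191.9 TPM) were lower in AsPC-1, and ERP29 (226.8 and 110.7 TPM) was higher.

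Transcription factors of gut and pancreas epithelium split between the lines, and their means are given in the same order. ELF3 (231.3 and 6.72 TPM), KLF5 (204.0 and 1.22 TPM), EHF (90.8 and 0.212 TPM), HNF4G (41.1 and 0.662 TPM), HNF4A (38.2 and 0.022 TPM) and FOXA1 (15.9 and 0.284 TPM) were found, like GATA6, at higher levels in AsPC-1. The intestinal factor CDX2 (30.1 and 3.67 TPM), KLF4 (38.8 and 5.96 TPM), CREB3L1 (41.0 and 9.50 TPM) and PDX1 (11.3 and 4.53 TPM) were also higher there. FOXA2 (0.0383 and 46.0 TPM), SOX9 (47.4 and 155.0 TPM) and GATA4 were higher in PANC-1. XBP1, a regulator of secretory capacity, was at 42.1 and 45.2 TPM, a difference that did not pass the test (adjusted p = 0.198 by limma).

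**Figure D2:**
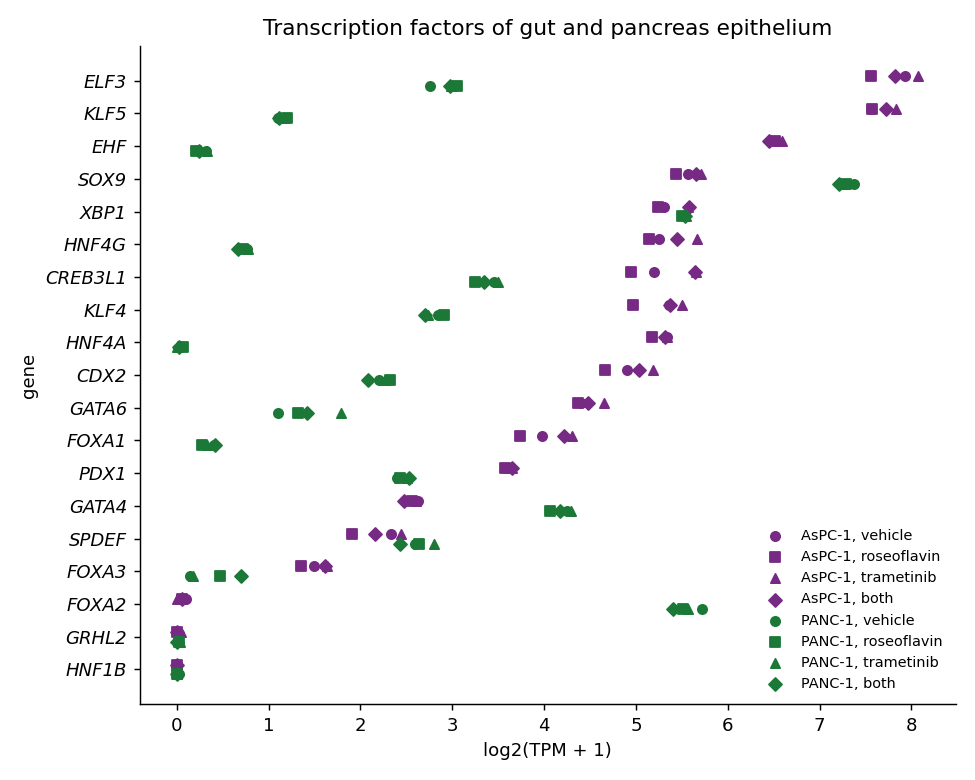
Levels of 19 transcription factors of gut and pancreas epithelium, GATA6 among them, as log2(TPM + 1) on the x axis in each of the 8 libraries (purple for AsPC-1, green for PANC-1, 1 point per library). GATA6, ELF3, KLF5, EHF and HNF4A lie to the right in AsPC-1, and FOXA2, SOX9 and GATA4 lie to the right in PANC-1.

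Trametinib-treated AsPC-1 spheroids had more AGR2, AGR3, CEACAM5 and CEACAM6 RNA than their matched libraries without it, and less TFF2 and TFF3 RNA. AGR2 was 1.37 times its vehicle level with trametinib and 1.43 times its roseoflavin level with both compounds. AGR3 was 2.10 and 2.99 times, CEACAM5 1.26 and 1.25 times, and CEACAM6 1.17 and 1.15 times in the same pairs, from the low level of AGR3 given above. TFF2 was at 0.813 and 0.634 times and TFF3 at 0.787 and 0.764 times. LCN2 (1.04 and 1.24 times) and GATA6 (1.20 and 1.09 times) were higher in both pairs by less, LYZ differed little (1.02 and 1.06 times), and TFF1 was lower in one pair and higher in the other (0.941 and 1.11 times). DUSP6, which ERK signalling induces, was at 0.802 and 0.771 times its matched level in AsPC-1 and at 0.751 and 0.717 times in PANC-1.

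**Figure D3:**
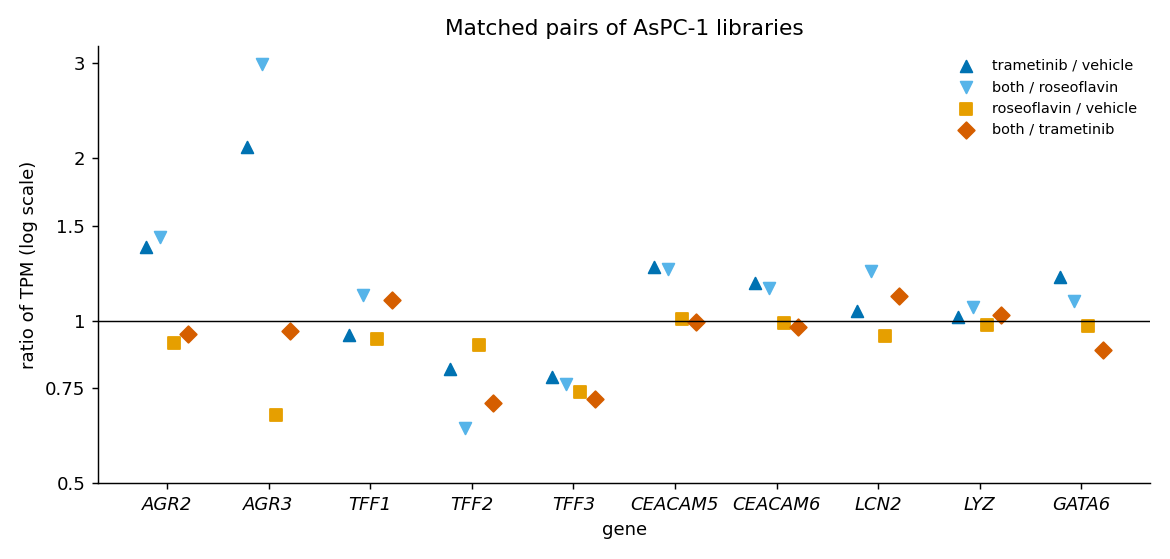
Ratio of TPM between matched AsPC-1 libraries (log scale, y axis) for each of the 10 genes, with 2 triangles for trametinib and a square and a diamond for roseoflavin, 1 library over 1 library and no error bars. Both triangles lie above 1 for AGR2, AGR3, CEACAM5 and CEACAM6 and below 1 for TFF2 and TFF3. All 4 symbols of TFF2 and all 4 of TFF3 lie below 1.

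None of these differences passed the test across all genes: for trametinib in AsPC-1, 0 of 19122 genes (0.0%) were called by limma with Benjamini-Hochberg adjustment, although 2691 had an unadjusted p under 0.05. For AGR2 the fitted difference was 0.48 on the log2 scale (SE 0.04, adjusted p = 0.271 by limma). It was 0.90 for AGR3 (SE 0.12, adjusted p = 0.271), 0.32 for CEACAM5 (SE 0.04, adjusted p = 0.271), 0.22 for CEACAM6 (SE 0.04, adjusted p = 0.273) and -0.46 for TFF2 (SE 0.14, adjusted p = 0.326). LCN2 (0.18), GATA6 (0.18) and TFF3 (-0.36) had adjusted p of 0.409, 0.677 and 0.711. Among all genes tested, the difference of AGR3 stood at percentile 99.4, AGR2 at 97.8, CEACAM5 at 95.2, CEACAM6 at 90.1, TFF3 at 4.38 and TFF2 at 2.83.

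**Figure D4:**
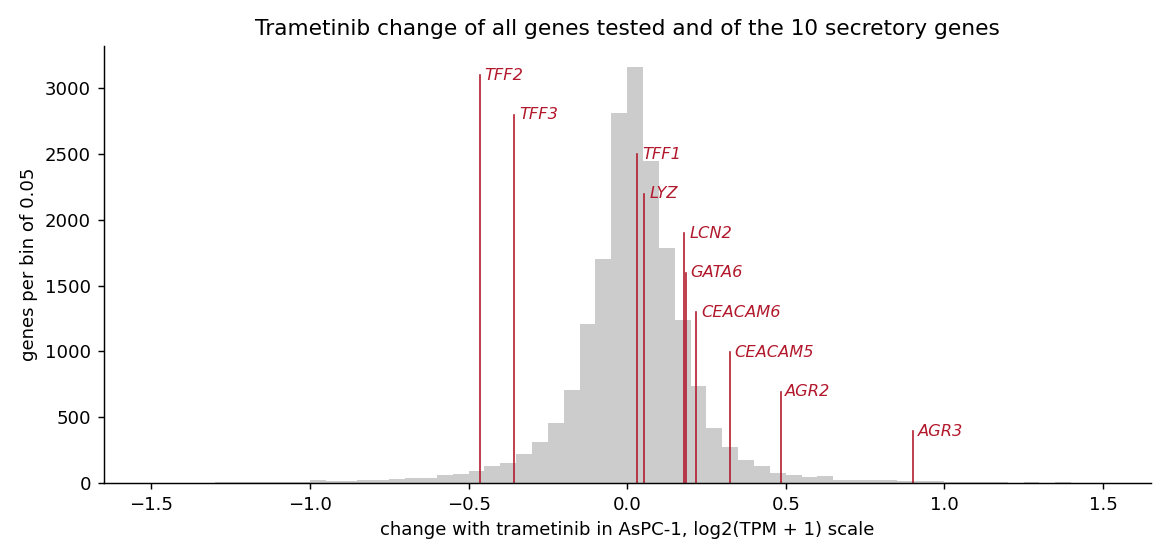
Histogram of the fitted trametinib difference in AsPC-1 over genes tested (x axis, log2(TPM + 1) scale; y axis, genes per bin of 0.05), with a red line for each of the 10 secretory genes, whose heights carry no value. 61 genes lie outside the plotted range. AGR3, AGR2 and CEACAM5 lie in the upper tail, TFF2 and TFF3 in the lower tail, and TFF1 and LYZ near the middle.

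Both trametinib-treated AsPC-1 libraries lay above both others for 7 of the 10 genes (AGR2, AGR3, CEACAM5, CEACAM6, LCN2, LYZ and GATA6), which was so for 24.0% of all genes tested. For 1 gene, TFF2, they lay below, as for 13.3% of all genes. After quantile normalization 6 genes were above, LYZ no longer being so, and TFF2 was still below. AGR2 and AGR3, and CEACAM5 and CEACAM6, are neighbours, and the CEACAM pair shares sequence with the overlapping model, so the 7 genes are not 7 separate loci. Other transcripts also differed between the same libraries. The duct markers were higher with trametinib for 7 of 7 tested, with a median of 0.14 against 0.02 over all genes tested. KRT18 (0.03) and KRT7 (0.07) differed least, and both were lower in the pair without roseoflavin. CFTR, the remaining duct marker of the list, averaged 0.0015 TPM in AsPC-1 and did not pass the filter. LUM, a matrix proteoglycan gene of fibroblasts, was higher by 0.44. It was at 102.8, 111.3, 145.5 and 145.6 TPM in AsPC-1 with vehicle, roseoflavin, trametinib and both compounds. COL1A1, the main fibroblast collagen gene, averaged 0.0823 TPM there. PANC-1 showed the reverse, with COL1A1 at a mean of 103.2 TPM and LUM at 0.00975 TPM. The part of these in the result was not tested.

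Most other classical genes were also higher with trametinib in AsPC-1. Of 15 other Moffitt classical genes tested, 14 were higher, with a median of 0.25. Of 17 other Collisson classical genes, 16 were higher, with a median of 0.20. The median over all genes was 0.02. SPINK4, among the 14, reached 1 TPM only in the 2 AsPC-1 libraries with trametinib (1.006 and 3.454 TPM). It passed the filter through them alone and so had to be higher. The 2 lists share TSPAN8, LGALS4 and ST6GALNAC1. Among the named genes, MUC13 was higher by 0.61 (SE 0.05), PRR15L by 0.44 (SE 0.06) and TSPAN8 by 0.25 (SE 0.13). LGALS4 was higher by 0.25 (SE 0.06), CDH17 by 0.14 (SE 0.05) and GPRC5A by 0.09 (SE 0.04). Each of the named genes had an adjusted p of 0.271 or more by limma. Of 17 epithelial transcription factors other than GATA6, 14 were higher, with a median of 0.20. CREB3L1 was higher by 0.58 (SE 0.07), FOXA1 by 0.40 (SE 0.09) and HNF4G by 0.36 (SE 0.06). CDX2 (0.33), XBP1 (0.30, SE 0.04), KLF4 (0.27), ELF3 (0.21), KLF5 (0.21) and SOX9 (0.18) were higher by less. PDX1 (0.07), HNF4A (0.07) and EHF (0.003) differed little, and FOXA2 (-0.05) and GATA4 (-0.05) were lower. FOXA2 averaged only 0.0383 TPM in AsPC-1 and passed the filter through PANC-1, so its direction says little. Of 16 other disulfide isomerase genes, 14 were higher, with a median of 0.11. No gene of these lists was called.

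In PANC-1 the same comparison gave 0 called genes (0.0%), with 919 at an unadjusted p under 0.05. AGR2 with trametinib was 1.02 times its vehicle level and 0.964 times its roseoflavin level. The trametinib difference of AGR2 in PANC-1 minus that in AsPC-1 was -0.50 (SE 0.06), which did not pass the test (adjusted p = 0.493 by limma, with 0.0% of genes called for that contrast and 1854 at an unadjusted p under 0.05). GATA6 was the 1 gene of the 10 whose trametinib-treated libraries both lay above the others, as did 16.1% of all genes tested. For none of the 10 were they below, against 11.6% of all genes. These counts say little, since AGR3, TFF1, TFF2, CEACAM5, CEACAM6, LCN2 and LYZ stayed under 1 TPM in PANC-1. AGR3 and CEACAM5, listed at 0 throughout there, could lie neither above nor below. GATA6 levels in PANC-1 were 2.15 and 1.12 times the matched ones, a fitted difference of 0.39 (SE 0.16, adjusted p = 1.0 by limma).

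With roseoflavin, AsPC-1 spheroids had lower TFF3 in both matched pairs, at 0.738 times the vehicle level and 0.717 times the trametinib level. TFF2 was at 0.902 and 0.703 times, AGR2 at 0.908 and 0.946 times, and AGR3 at 0.670 and 0.956 times. CEACAM5 (1.01 and 0.995 times), CEACAM6 (0.991 and 0.972 times) and LYZ (0.983 and 1.03 times) were within 3% of their matched level. The fitted difference was -0.44 for TFF3 (SE 0.34, adjusted p = 0.669 by limma), -0.32 for TFF2 (SE 0.14, adjusted p = 0.488) and -0.11 for AGR2 (SE 0.04, adjusted p = 0.453), and again 0.0% of genes were called, with 2163 at an unadjusted p under 0.05. TFF3 was the 1 gene of the 10 below without overlap, as were 21.6% of all genes, and none was above, against 10.6%.

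In PANC-1, AGR2 was at 0.952 and 0.902 times its matched level with roseoflavin, a difference of -0.11 (SE 0.04, adjusted p = 0.470 by limma). The roseoflavin comparison there also called 0.0% of genes, with 2074 at an unadjusted p under 0.05. TFF1, LCN2 and LYZ were above without overlap (22.9% of all genes) and AGR2 and CEACAM6 below (22.7%), but apart from AGR2 all of these were under 1 TPM. For the roseoflavin difference in PANC-1 minus that in AsPC-1, 0.0% of genes were called and 2227 had an unadjusted p under 0.05.

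With both compounds, TFF2 and TFF3 in AsPC-1 were at 0.571 and 0.564 times the vehicle level, AGR2 at 1.30 times, CEACAM5 at 1.25 times and CEACAM6 at 1.14 times. The 3 trefoil transcripts summed to 101.6, 85.2, 83.6 and 65.2 TPM with vehicle, roseoflavin, trametinib and both. A departure of the paired treatment from additivity on the log2 scale was tested over both lines, and 0.0% of genes were called, with 536 at an unadjusted p under 0.05. The departure was -0.36 for TFF2 (SE 0.27), -0.69 for TFF3 (SE 0.50) and -0.37 for GATA6 (SE 0.16), each with an adjusted p of 1.00 by limma. In the single lines the departure of TFF3 was -0.04 in AsPC-1 against -1.34 in PANC-1, where its level was low. That of TFF2 was -0.35 in AsPC-1 against -0.37 in PANC-1, where it was listed at 0 in 3 libraries, and that of GATA6 was -0.14 and -0.59. Under the alternatives tried the value ranged from -1.35 to -0.03 for TFF3 and from -1.17 to -0.09 for TFF2. In PANC-1, GATA6 was at 2.15 times the vehicle level with trametinib, 1.31 times with roseoflavin and 1.47 times with both.

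For the 9 genes that averaged 10 TPM or more in a line, which leaves out AGR3, the closest named gene over the 8 libraries was found by Euclidean distance on log2(TPM + 1). The 15023 candidates did not include the 10 secretory genes. It was ATP5F1C for AGR2 (distance 0.50), RBPMS for TFF1 (0.51), YPEL3 for TFF2 (0.57), PLA2R1 for TFF3 (0.96), RN7SKP54 for CEACAM5 (0.43), TMEM176B for LCN2 (0.57) and BDH1 for GATA6 (0.55). For CEACAM6 and LYZ it was TSPAN8 in both cases, at the larger distances of 2.35 and 2.29. CEACAM6 and LYZ themselves were 0.50 apart.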

How the data were processed

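The authors deposited 1 table of TPM values per gene, which per the file headers has a TPM column for each line and treatment. Per the labels' protocols, libraries were made from column-purified total RNA with a stranded mRNA kit. Per the submitters' processing notes, STAR 2.7.3a, HTSeq 2.0.2 and build hg38 were used, and their roles, the annotation and the handling of shared reads are not given in the sources used here. Blank rows (985926) were dropped, which left 62649 genes, 41719 of them named. Every library sums to 1000000 TPM, so depth and counting error are unknown.

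Samples were grouped by the line and treatment in their labels. The 19122 genes that reached 1 TPM in 2 libraries or more were tested as log2(TPM + 1), on which changes of low genes come out too small, with limma 3.58.1 in R 4.3.3 (trended prior variance), two-sided, with Benjamini-Hochberg adjustment over all genes and a threshold of 0.05. The lines were compared with treatment as 4 levels (3 residual degrees of freedom). Each compound was tested within each line, with the other compound as the replication (2 residual degrees of freedom), and the interaction of the compounds was tested over both lines. The models were tested on simulated data. Libraries were called not overlapping where both with a compound lay above, or below, both without it.

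The secretory genes and all gene lists were chosen with earlier results of these data known, so lists are described by counts and medians and not tested. All 10 genes are named, with the most abundant 4 genes of each list, transcription factors with at least 10 TPM in either line (1 is not reported here), chromosomal neighbours and the gene nearest in pattern. DUSP6, ST6GALNAC1, PTPRC, KRT7, CFTR, PDIA2, CEACAM8, HMGB1P39, WDR3 and the genes listed at 0 throughout were named outside that rule after their values were seen. So were SPINK4 and SCEL. Sequences and alignments were handled with Biopython 1.88. Alternatives were quantile normalization, rescaling without the mitochondrial genome, a pseudocount of 0.1, no filter, a mean of at least 10 TPM, leaving out each library, and compound effects shared by both lines.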

Additional observations from a re-analysis of the deposited data

How the results depend on the processing

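A selection of 23 fitted differences of the secretory genes gave 311 values under the alternatives. All had the same direction and the same side of the threshold as in the main setting. For the compound comparisons the side says nothing, since no gene was called in any setting. The selection includes the difference of TFF1 between the lines, whose outcome was fixed by the filter. The trametinib difference of AGR2 in AsPC-1 ranged from 0.23 to 0.51, with adjusted p between 0.147 and 0.861 by limma, and that of TFF3 from -0.38 to -0.01. The number of genes that differed between the lines was 15921, and 8313 where a mean of at least 10 TPM was required, a filter that tests 9368 genes. It was between 15208 and 15422 with 1 library left out. No compound comparison called a gene under any alternative run. Libraries were matched by treatment between the lines and by the other compound within a line in the models reported, and the labels give no replicate numbers for a further block. Depth is not known from TPM, so values under 1 TPM, which include 7 of the 10 genes in PANC-1, carry an unknown counting error.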

Other observations

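AsPC-1 also held genes of the basal-like tumour type beside the classical secretory genes. Of 25 genes of the Moffitt basal-like list, 12 averaged 1 TPM or more in AsPC-1 but 6 in PANC-1, and 8 were at 0 in all 8 libraries. The most abundant were the glucose transporter SLC2A1 (124.6 TPM in AsPC-1 against 68.4 TPM in PANC-1), DHRS9 (61.4 and 0.155 TPM), the EGF receptor ligand AREG (51.5 and 1.44 TPM) and FAM83A (33.96 and 0.0573 TPM). With trametinib in AsPC-1, 7 of 13 basal-like genes tested were higher, with a median of 0.07, and none was called by limma. Both libraries lay above the others for 5 and below for 5, where 24.0% and 13.3% of all genes tested did so. SCEL, among those below, reached 1 TPM only in the AsPC-1 libraries without trametinib (1.034 and 1.208 TPM). It passed the filter through them alone and so had to lie below. SLC2A1 was lower by 0.31 (SE 0.05) and DHRS9 higher by 0.22 (SE 0.06), with adjusted p of 0.271 and 0.315.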
